A study of Mus musculus with 9 samples.

Results

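The interferon receptors and the kinase, transcription factor and inhibitor genes that act next to them were examined as 10 genes: the receptor chains Ifngr1, Ifngr2, Ifnar1 and Ifnar2, the kinases Jak1 and Jak2, the transcription factor Stat3, and the inhibitors Socs3, Ptpn2 and Ptpn11. They were taken by symbol from the platform annotation, and all 10 were found among 30050 genes, each with 1 transcript cluster (the probes summarised for 1 transcript). The 9 Affymetrix arrays held 3 groups of 3 arrays. DOX_IFNg cells were given 0.3 µM doxorubicin and 20 ng/ml interferon gamma, DOX cells 0.3 µM doxorubicin, and Con cells phosphate-buffered saline. Every array came from cells labelled HL-1, a single immortalized line derived from mouse atrial cardiomyocytes, grown with fetal bovine serum. No group received interferon gamma without doxorubicin, and the labels give no time of exposure. Nothing in the labels tells whether replicates were grown as separate cultures, and the p-values then reflect array-to-array spread that may be purely technical.

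Interferon gamma binds a receptor built from Ifngr1, which carries the ligand-binding surface, and Ifngr2, whose supply limits the response in several cell types. Type I interferons bind Ifnar1 and Ifnar2. The kinase Jak1 sits on Ifngr1 and Ifnar2 and the kinase Jak2 on Ifngr2. The activated kinases phosphorylate STAT proteins, which move to the nucleus, bind palindromic sites with the letters TTCNNNGAA and switch on genes that include the inhibitors of the SOCS family. Stat3 is the STAT protein most used by interleukin 6 and related cytokines that signal through the receptor chain Il6st (gp130), a pathway known to protect heart muscle cells. Socs3 closes that loop by blocking gp130 and its kinases. Ptpn2 (TC-PTP) is a phosphatase that acts on Jak1 and STAT proteins. Ptpn11 (SHP2) is a phosphatase that binds gp130 and carries the signal on to the Ras pathway while limiting STAT signalling.

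The stretches from 250 bases before to 50 bases after a transcription start were taken from RefSeq (GRCm38.p6) and searched for the STAT site TTCNNNGAA, which reads the same on both strands, and for the core of the interferon-stimulated response element, which is GAAA, NN and GAAA in a row, on either strand. The stretch of Ptpn2 is not reported here. Of the 9 other genes searched, 3 held the STAT site, namely Socs3 (TTCTTAGAA), Ifnar2 (TTCCTGGAA) and Ifnar1 (TTCACGGAA), and 0 held the element core. Among 32851 stretches of the same length, 8.3% held the STAT site and 3.44% the element core on either strand. A match is a string of letters in this window and not a shown binding site. The Socs3 stretch is printed because Socs3 is the feedback gene of the pathway, with its match in capitals starting 154 bases before the start, and the Jak1 stretch because Jak1 was the 1 gene called in both comparisons with Con. The strand is minus for both, at chr11:117969317-117969616 for Socs3 and chr4:101265174-101265473 for Jak1.
Socs3: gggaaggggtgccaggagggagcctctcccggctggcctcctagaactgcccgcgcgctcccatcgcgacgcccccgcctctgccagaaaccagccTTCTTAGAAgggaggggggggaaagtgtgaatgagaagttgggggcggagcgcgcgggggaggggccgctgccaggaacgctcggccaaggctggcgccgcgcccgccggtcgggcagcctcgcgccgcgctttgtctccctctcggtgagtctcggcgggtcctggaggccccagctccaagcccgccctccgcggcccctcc
Jak1: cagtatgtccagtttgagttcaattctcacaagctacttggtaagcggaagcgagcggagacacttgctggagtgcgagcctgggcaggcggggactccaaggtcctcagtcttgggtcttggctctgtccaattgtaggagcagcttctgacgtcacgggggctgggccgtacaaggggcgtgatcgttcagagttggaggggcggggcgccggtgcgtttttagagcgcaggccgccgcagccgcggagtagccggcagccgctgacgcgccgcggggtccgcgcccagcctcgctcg

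Values are log2 expression, and a difference of 1 is a doubling. As a mark of dim signal, a receptor limit was set at 4.69, the 95th percentile of the mean log2 level of 1749 olfactory, vomeronasal and taste receptor genes. Of all genes, 40.4% lay above it. The labelled cell type was checked against 13 measured cardiomyocyte markers, of which 3 lay above the limit. These were Tnnt2 (8.09, 7.98 and 7.74 in Con), Nkx2-5 (5.35, 5.33 and 5.47 in Con) and Actn2 (4.76, 4.75 and 4.72 in Con). The atrial marker Myl7 lay at 4.27 ± 0.11 in DOX_IFNg, 4.21 ± 0.12 in DOX and 4.12 ± 0.06 in Con, and the natriuretic peptide Nppa at 4.11 ± 0.11, 4.04 ± 0.13 and 3.97 ± 0.10 in the same order of groups (SD, n = 3 each). These defining markers of an atrial cardiomyocyte were thus dim on all arrays, so the cells are called here by their label only. None of 7 endothelial markers and 1 of 9 immune markers exceeded the limit. So did 5 of 10 skeletal muscle, 5 of 9 fibroblast and 4 of 5 smooth muscle markers. Among the skeletal muscle markers, Myog lay at 8.23, 7.97 and 8.34 in Con. Some arrays shared exact values: any pair within one set (DOX_IFNg replicates 1 and 2, every DOX array and Con replicate 1) had 82 to 186 values in common, whereas pairs with Con replicates 2 or 3 or DOX_IFNg replicate 3 held 1 to 17. The reason is not in the sources used here, and calls among the 10 genes that changed with this division as a term are named with each gene.

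**Figure D1:**
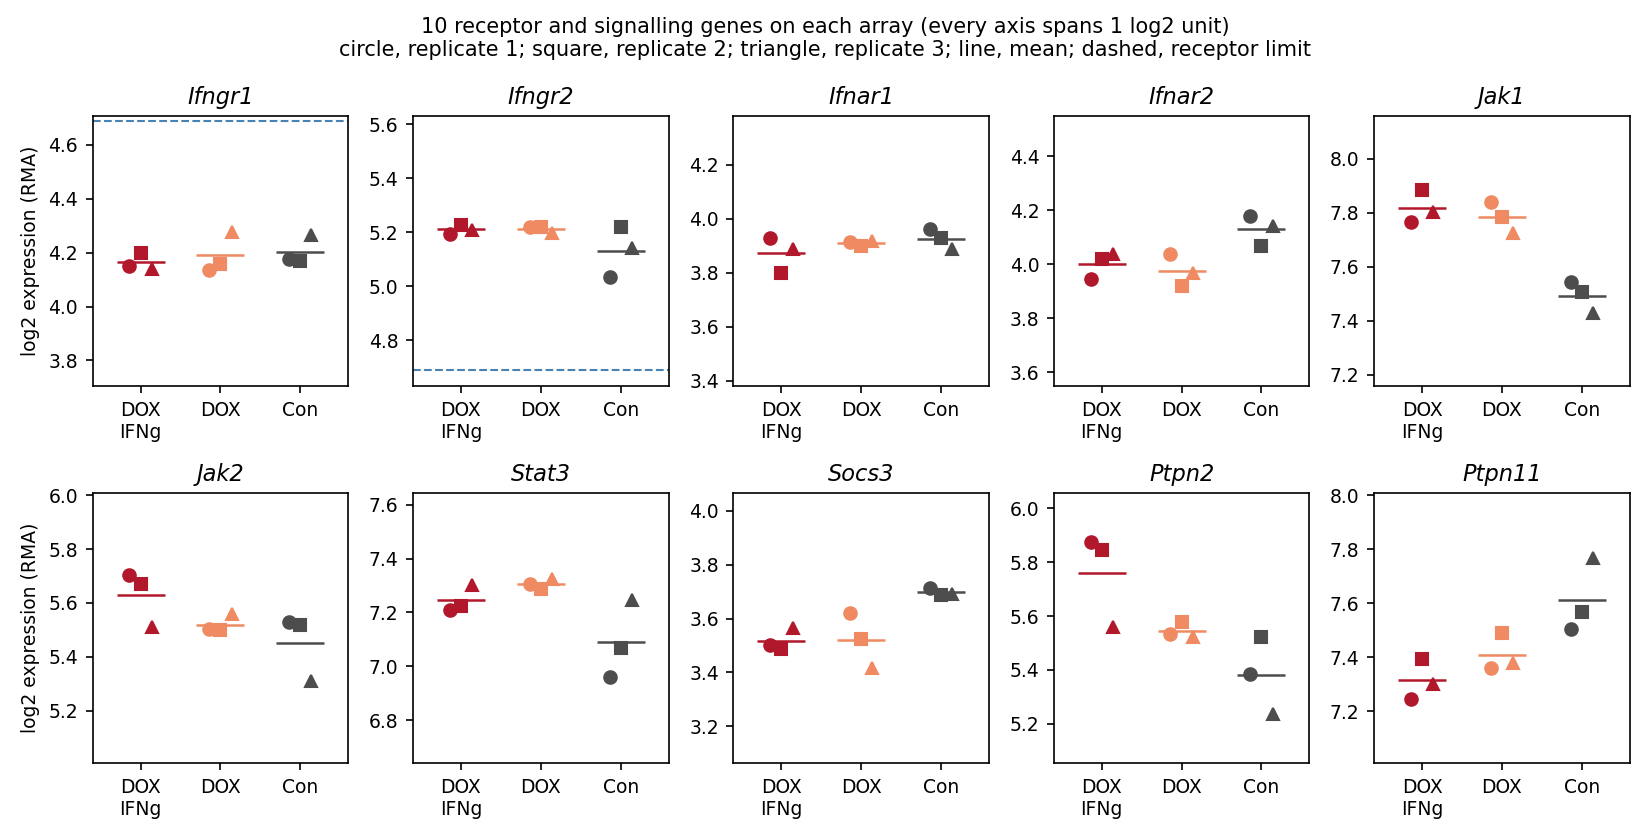
Log2 expression (vertical axis, RMA values, each axis 1 unit tall) of the 10 genes on all 9 arrays, with DOX_IFNg, DOX and Con from left to right. Symbols mark the replicates, lines the group means, and the dashed line the receptor limit of 4.69 where it falls in the panel. All 6 arrays with doxorubicin lie above Con for Jak1 and below Con for Ptpn11, Socs3 and Ifnar2.

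Of the 4 interferon receptor chains, 3 gave dim signal under every treatment. Ifngr1, the ligand-binding chain for interferon gamma, lay at 4.15, 4.20 and 4.14 in DOX_IFNg, at 4.14, 4.16 and 4.27 in DOX and at 4.18, 4.17 and 4.26 in Con. All 9 values were under the receptor limit and the groups overlapped. The difference was -0.01 for DOX minus Con (SE 0.06, adjusted p = 0.913) and -0.03 for DOX_IFNg minus DOX (SE 0.06, adjusted p = 0.992).

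Ifngr2, the second chain of the interferon gamma receptor, was the only receptor chain of the 4 above the limit. It lay at 5.19, 5.23 and 5.21 in DOX_IFNg, at 5.22, 5.22 and 5.20 in DOX and at 5.03, 5.22 and 5.14 in Con. Con was the most spread group, and its highest array reached the DOX arrays. The difference was 0.08 for DOX minus Con (95% interval -0.05 to 0.21, adjusted p = 0.423) and 0.00 for DOX_IFNg minus DOX (95% interval -0.13 to 0.13, adjusted p = 0.999).

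Of the type I interferon receptor, Ifnar1 lay at 3.93, 3.80 and 3.89 in DOX_IFNg, at 3.92, 3.90 and 3.92 in DOX and at 3.96, 3.93 and 3.89 in Con, with overlap between all groups. Ifnar2 lay at 3.95, 4.02 and 4.04 in DOX_IFNg, at 4.04, 3.92 and 3.97 in DOX and at 4.18, 4.07 and 4.14 in Con. Each array with doxorubicin was below each Con array for Ifnar2, although both chains lay under the receptor limit throughout. The differences of Ifnar2, -0.16 for DOX minus Con (SE 0.06, adjusted p = 0.103) and -0.13 for DOX_IFNg minus Con (SE 0.06, adjusted p = 0.167), did not pass. Differences of such dim probes can be understated on arrays.

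Jak1, the kinase shared by interferon and gp130 receptors, was higher with doxorubicin. It lay at 7.77, 7.89 and 7.80 in DOX_IFNg, at 7.84, 7.79 and 7.72 in DOX and at 7.54, 7.51 and 7.43 in Con. The 6 arrays with doxorubicin all lay above the 3 Con arrays, while those of DOX_IFNg and DOX overlapped. Jak1 rose by 0.29 in DOX minus Con (SE 0.06, 95% interval 0.16 to 0.42, 1.22-fold, adjusted p = 0.00913) and by 0.32 in DOX_IFNg minus Con (SE 0.06, 1.25-fold, adjusted p = 0.00496). In DOX minus Con it was the only one of the 10 genes called, against 15.6% of all 30050 genes and 33% of the 12148 genes above the receptor limit, to which 6 of the 10 belong. Its call held in each fit that left out 1 array (adjusted p between 0.0130 and 0.0421), and with the arrays' shared-value division as a term the rise of 0.26 did not pass (adjusted p = 0.0572).

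Jak2, the kinase on Ifngr2, lay at 5.70, 5.67 and 5.51 in DOX_IFNg, at 5.50, 5.50 and 5.56 in DOX and at 5.53, 5.52 and 5.31 in Con. Replicate 3 was the lowest array of both DOX_IFNg and Con, and all groups overlapped. The differences were 0.07 for DOX minus Con (SE 0.08, adjusted p = 0.660), 0.11 for DOX_IFNg minus DOX (SE 0.08, adjusted p = 0.978) and 0.18 for DOX_IFNg minus Con (SE 0.08, adjusted p = 0.171). With the shared-value division as a term, the first of these was -0.03 (adjusted p = 0.888).

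Stat3 was higher in DOX than in Con on every array, but the difference did not pass the test. It lay at 7.21, 7.22 and 7.30 in DOX_IFNg, at 7.31, 7.29 and 7.32 in DOX and at 6.96, 7.07 and 7.25 in Con. The DOX arrays differed by 0.03 among themselves and the Con arrays by 0.29, with Con replicate 3 above 2 DOX_IFNg arrays. The difference was 0.21 for DOX minus Con (SE 0.07, 95% interval 0.05 to 0.38, adjusted p = 0.0930) and 0.15 for DOX_IFNg minus Con (SE 0.07, adjusted p = 0.216). Without Con replicate 3 the first was 0.29 (adjusted p = 0.0132) and the second 0.23 (adjusted p = 0.0330). The first was also called with array weights (0.24, adjusted p = 0.0169) and with the shared-value division as a term (0.31, adjusted p = 0.0339). Of the Con arrays only replicate 1, the lowest for Stat3, shares the set of the DOX arrays. The value with that term thus leans on this array and on the set difference within Con and DOX_IFNg.

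Socs3, the feedback inhibitor with the STAT site printed above, was dim. It lay lower with doxorubicin, but in the fit to all genes neither DOX minus Con nor DOX_IFNg minus Con passed the test. Socs3 lay at 3.50, 3.49 and 3.56 in DOX_IFNg, at 3.62, 3.52 and 3.42 in DOX and at 3.71, 3.69 and 3.69 in Con. All values were under the receptor limit, and no array with doxorubicin reached the lowest Con array. The differences were -0.18 for DOX minus Con (SE 0.06, adjusted p = 0.0852) and -0.18 for DOX_IFNg minus Con (SE 0.06, adjusted p = 0.0765), neither called. DOX_IFNg minus DOX was 0.00 (95% interval -0.14 to 0.13, adjusted p = 0.999). Among protein-coding genes only, both differences from Con were called (adjusted p = 0.0498 and 0.0462). The first was called also without DOX replicate 1 (-0.23, adjusted p = 0.0483), and the second without DOX replicate 3 (adjusted p = 0.0477) and with array weights (adjusted p = 0.0491).

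The phosphatases Ptpn2 and Ptpn11 differed from Con in opposite directions. Ptpn2 lay at 5.87, 5.85 and 5.56 in DOX_IFNg, at 5.53, 5.58 and 5.52 in DOX and at 5.38, 5.52 and 5.24 in Con. DOX_IFNg replicates 1 and 2 were the highest of the 9 arrays and replicate 3 lay within the range of the DOX arrays, above all Con arrays. Ptpn2 rose by 0.38 in DOX_IFNg minus Con (SE 0.10, 1.30-fold, adjusted p = 0.0311), against 0.16 in DOX minus Con (SE 0.10, adjusted p = 0.353) and 0.22 in DOX_IFNg minus DOX (SE 0.10, adjusted p = 0.976). The interval of the last comparison ran from -0.01 to 0.44. The call of Ptpn2 did not survive leaving out replicate 1 or 3 of Con, replicate 1 or 2 of DOX, or replicate 1 or 2 of DOX_IFNg (highest adjusted p = 0.106), nor the shared-value division as a term (adjusted p = 0.0592).

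Ptpn11 lay at 7.25, 7.39 and 7.30 in DOX_IFNg, at 7.36, 7.49 and 7.38 in DOX and at 7.50, 7.57 and 7.77 in Con. Every array with doxorubicin lay under every Con array, the highest DOX array only narrowly. Ptpn11 fell by 0.30 in DOX_IFNg minus Con (SE 0.08, adjusted p = 0.0326). In DOX minus Con it was 0.20 lower (difference -0.20, SE 0.08, adjusted p = 0.132), which did not pass. The call in DOX_IFNg minus Con did not survive leaving out replicate 2 or 3 of Con, replicate 1 of DOX, or replicate 1 or 3 of DOX_IFNg (highest adjusted p = 0.107), nor the shared-value division as a term (adjusted p = 0.0700). A fit of only DOX_IFNg and Con also ended the calls of Ptpn11 (adjusted p = 0.0731) and Ptpn2 (adjusted p = 0.0840).

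Over DOX_IFNg minus Con, 3 of the 10 genes were called, Jak1 and Ptpn2 higher and Ptpn11 lower, against 17.4% of all genes and 36.7% of those above the receptor limit. DOX_IFNg minus Con and DOX minus Con share the Con arrays, so their values are not independent. Arrays did not overlap in 5 of 10 genes in DOX minus Con and in 5 of 10 in DOX_IFNg minus Con, against 32.9% and 33% of all genes. An unadjusted p under 0.05 was reached by 5 of 10 genes in DOX minus Con, against 27.6% of all genes, and by 6 of 10 in DOX_IFNg minus Con, against 29%. The median difference of the 10 genes was 0.03 and 0.02, against -0.01 and -0.02 over all genes. In a comparison added after the data were seen, the 6 arrays with doxorubicin were set together against Con. Jak1 was 0.31 higher (SE 0.05, adjusted p = 0.00255), Ptpn11 0.25 lower (difference -0.25, SE 0.07, adjusted p = 0.0328) and Socs3 0.18 lower (difference -0.18, SE 0.05, adjusted p = 0.0412), and these 3 were called, against 20.5% of all genes. With Ifnar2 (difference -0.14, adjusted p = 0.0731) they were the 4 genes in which the 6 arrays did not overlap with Con, against 24.1% of all genes. Ptpn2 (0.27, adjusted p = 0.0579) and Stat3 (0.18, adjusted p = 0.0807) did not pass.

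**Figure D2:**
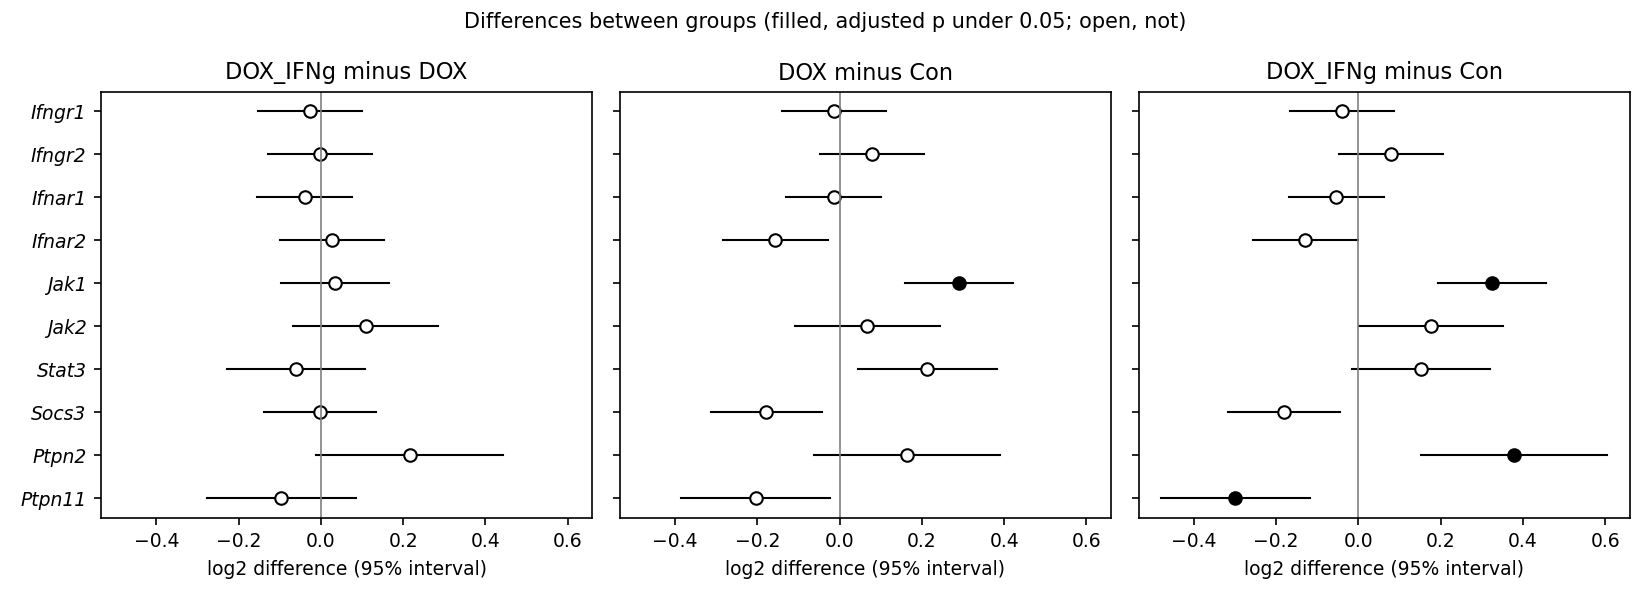
Log2 differences (horizontal axis) of the 10 genes with 95% intervals from limma, for DOX_IFNg minus DOX, DOX minus Con and DOX_IFNg minus Con from left to right, with 3 arrays a group. Filled circles passed an adjusted p of 0.05: none at left, Jak1 in the middle, and Jak1, Ptpn2 and Ptpn11 at right.

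Between cells given both agents and cells given doxorubicin alone, no receptor, kinase or inhibitor gene of the 10, nor Stat3, was called. By limma 0 of the 10 genes were called in DOX_IFNg minus DOX, and 0 had an unadjusted p under 0.05. Over all genes 0% were called and 5% had an unadjusted p under 0.05. The arrays overlapped in all 10 genes, whereas they did not overlap in 11.2% of all genes. The 95% intervals of the 10 differences lay between -0.28 (Ptpn11) and 0.44 (Ptpn2), which is between 0.826-fold and 1.36-fold. An effect within these intervals, or one understated by dim probes, may have been missed with 3 arrays a group. None of the other settings fitted for this comparison, 18 for the dim genes and 19 for the rest, called any of the 10 genes (lowest adjusted p = 0.528).

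Of 19 other measured genes of the JAK-STAT chain, 6 rose in DOX minus Con, 0 fell and 13 did not pass, against 8.06% higher and 7.53% lower among all genes. Of the 19, 12 lay above the receptor limit, where 33% of all genes were called in either direction. The 6 of 19 include dim genes, so the 33% is not a like share for them. Of all genes, dim ones counted in, 15.6% were called in either direction. The adaptor Sh2b1, which binds Jak2, rose by 0.77 (SE 0.11, adjusted p = 0.00176). The sorting adaptors Stam and Stam2, which bind JAK kinases, rose by 0.52 each (SE 0.07 and 0.11, adjusted p = 0.00174 and 0.0128), and the deubiquitinase Stambp, their partner, by 0.48 (SE 0.10, adjusted p = 0.0125). The median difference of the 19 was 0.09. Other genes of the type I interferon chain did not pass: Tyk2, the kinase on Ifnar1, was -0.10 (adjusted p = 0.288), Stat2 -0.18 (adjusted p = 0.0673) and Irf9, the DNA-binding partner of Stat2, -0.08 (adjusted p = 0.340).

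Among 19 other measured inhibitors, 3 rose, 1 fell and 15 did not pass in DOX minus Con, with a median of 0.06, against 8.06% higher and 7.53% lower among all genes. Above the receptor limit, where 7 of the 19 lay, 33% of all genes were called. Pias3, an inhibitor of Stat3, lay at 6.01, 6.08 and 6.12 in DOX_IFNg and at 6.10, 6.17 and 5.98 in DOX, against 5.50, 5.53 and 5.38 in Con. No array with doxorubicin came near Con, and the rise was 0.61 in DOX minus Con (SE 0.07, 1.53-fold, adjusted p = 0.000409). The phosphatase Dusp3 rose by 0.35 (SE 0.06, adjusted p = 0.00476) and the SUMO ligase Pias4 by 0.35 (SE 0.06, adjusted p = 0.00416). Socs7 fell by 0.21 (SE 0.05, adjusted p = 0.0302), which no longer passed without Con replicate 2 or without any 1 of the DOX arrays. Socs1, the main inhibitor of interferon gamma signalling, was at 4.24 ± 0.05 in DOX_IFNg, 4.25 ± 0.10 in DOX and 4.21 ± 0.09 in Con (SD, n = 3 each), under the limit and not called.

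Of 13 measured gp130 cytokines and receptors, which act upstream of Stat3, 2 rose, 1 fell and 10 did not pass in DOX minus Con, against 8.06% higher and 7.53% lower among all genes. The 2 that rose were the cytokine genes Lif and Il6. Lif, a gp130 cytokine, lay at 6.15, 6.18 and 6.40 in DOX_IFNg and at 6.40, 6.24 and 6.33 in DOX, against 5.63, 5.77 and 5.84 in Con, and rose by 0.58 in DOX minus Con (SE 0.09, adjusted p = 0.00210). Il6, the cytokine best known for Stat3 activation, lay at 4.74, 4.50 and 4.67 in DOX_IFNg and at 4.60, 4.85 and 4.49 in DOX, against 3.83, 4.14 and 4.04 in Con, and rose by 0.64 (SE 0.12, adjusted p = 0.00593). For both ligands all 6 arrays with doxorubicin lay above Con, and the mean of Il6 over all arrays was under the receptor limit. The receptor chain Lifr fell by 0.25 (SE 0.06, adjusted p = 0.0180), also under the limit, but not once replicate 1 or 2 of Con or of DOX was left out. The shared chain Il6st differed by -0.08 (SE 0.05, adjusted p = 0.353).

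Of 20 measured genes known as Stat3 targets in various tissues, 8 rose, 1 fell and 11 did not pass in DOX minus Con, with a median of 0.13, against 8.06% higher and 7.53% lower among all genes. Of the 20, 12 lay above the receptor limit, where 33% of all genes were called. Vegfa, a vascular growth factor, rose by 2.55 (SE 0.10, 5.87-fold, adjusted p = 5.57e-06), Klf4, a transcription factor, by 0.88 (SE 0.13, adjusted p = 0.00193), the survival gene Bcl2l1 by 0.79 (SE 0.09, adjusted p = 0.000474) and the transcription factor Cebpb by 0.77 (SE 0.14, adjusted p = 0.00604). Pim1, a kinase gene, fell by 0.38 (SE 0.06, adjusted p = 0.00277). The number that rose was 5 without Con replicate 1 or Con replicate 3 and 4 without Con replicate 2 or DOX replicate 1. Many of these genes also answer to other factors, and their link to Stat3 in these cells was not measured.

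**Figure D3:**
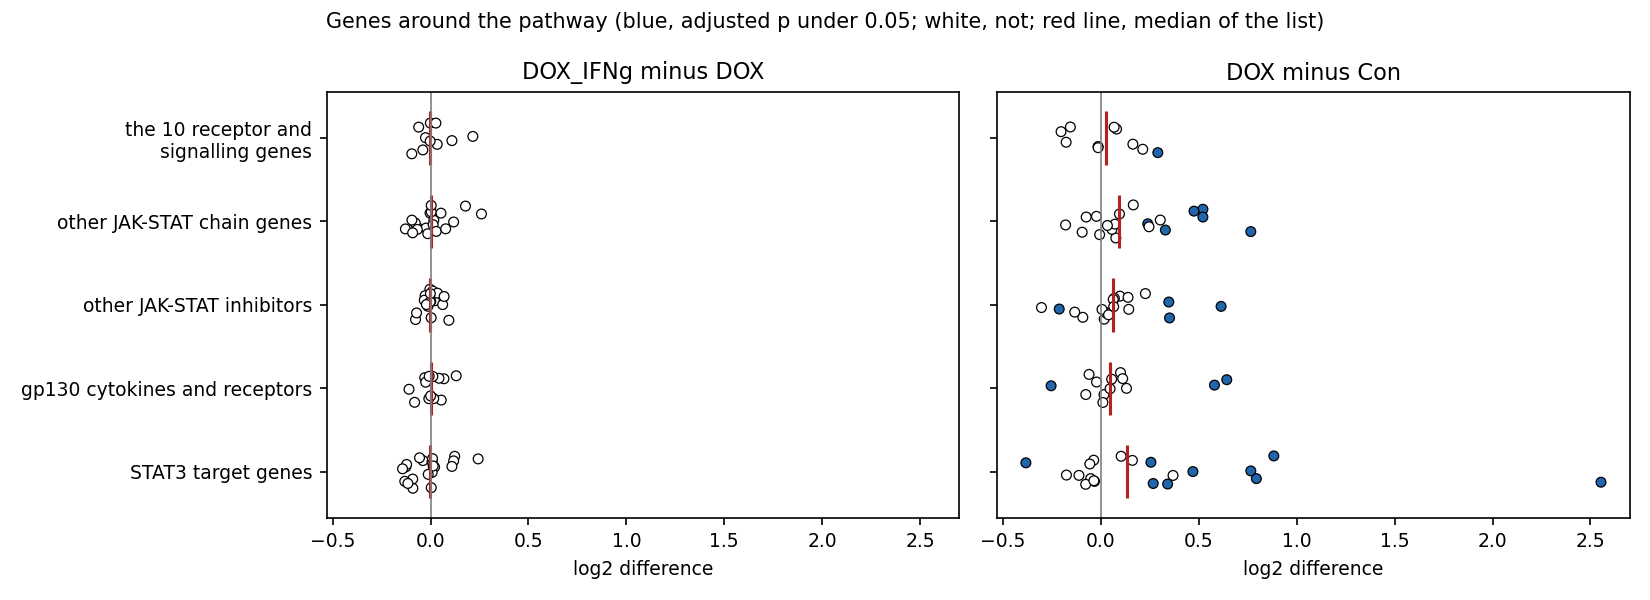
Log2 differences (horizontal axis) of the 10 genes and 4 surrounding gene lists for DOX_IFNg minus DOX (left) and DOX minus Con (right), 1 circle a gene, with blue for an adjusted p under 0.05 and a red line at each list's median. At left no gene is blue, and at right called genes lie mostly above 0, with Vegfa farthest at 2.55.

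In DOX_IFNg minus Con the surrounding lists gave similar counts. The chain list had 6 higher and 0 lower, the inhibitors 4 higher and 1 lower, and the Stat3 targets 8 higher and 2 lower. The gp130 list had 4 higher and 1 lower, adding Ctf1 (0.26, adjusted p = 0.0473) and Osmr (0.17, adjusted p = 0.0325) to Il6 and Lif. The number higher in the gp130 list was 2 without any 1 Con array, DOX replicate 1, DOX replicate 2 or DOX_IFNg replicate 1. The number higher among the Stat3 targets was 4 without Con replicate 2 and 5 without Con replicate 3 or DOX_IFNg replicate 2. Among all genes 8.01% were higher and 9.41% lower in this comparison. With the shared-value division as a term, the lists in this comparison had 6 higher and 0 lower (chain), 3 higher and 0 lower (inhibitors), 3 higher and 1 lower (gp130), and 7 higher and 2 lower (Stat3 targets). In DOX minus Con that term left 5 higher in the chain list and 6 higher among the Stat3 targets, and the counts of the inhibitor and gp130 lists were as before.

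The mean log2 levels of 4 of 6 cell type marker lists were lower on every array with doxorubicin than on every Con array, and those of the endothelial and immune lists overlapped. A list mean can be moved by 1 gene, as it was here by Myog in the skeletal muscle list and by Tnnt2 in the cardiomyocyte list. The median gene difference in DOX minus Con was -0.13 for fibroblast, -0.06 for skeletal muscle, -0.02 for smooth muscle and 0.01 for cardiomyocyte markers. In DOX_IFNg minus Con these medians were -0.02, -0.02, -0.18 and 0.04. The skeletal muscle marker Myog lay at 4.50, 4.90 and 4.87 in DOX, against 8.23, 7.97 and 8.34 in Con. Other markers of that list went the other way. Myod1 lay at 7.0, 6.9 and 6.4 in DOX, against 5.9, 6.2 and 5.9 in Con. Chrna1 lay at 5.29, 5.40 and 5.19 in DOX, against 4.88, 4.92 and 4.83 in Con, and Des was also higher. These skeletal muscle markers were named after their values were seen. The mean log2 level of 9 fibroblast markers, 5 of them above the limit, ranged from 8.59 to 8.65 in DOX_IFNg and from 8.60 to 8.61 in DOX, against 8.93 to 9.10 in Con, with 4 falling and 1 rising in DOX minus Con (0 rising without Con replicate 2, DOX replicate 2 or DOX replicate 3, and 2 without Con replicate 1). That of 10 skeletal muscle markers, 5 above the limit, ranged from 4.82 to 4.92 in DOX_IFNg and from 4.87 to 5.02 in DOX, against 5.24 to 5.32 in Con, with 3 falling and 3 rising (1 rising without Con replicate 1 and 0 without DOX replicate 1 or 2). That of 5 smooth muscle markers, 4 above the limit, ranged from 8.72 to 8.84 in DOX_IFNg and from 8.79 to 8.93 in DOX, against 9.11 to 9.22 in Con, with 2 falling and 1 rising. That of 13 cardiomyocyte markers, 3 above the limit, ranged from 4.39 to 4.45 in DOX_IFNg and from 4.41 to 4.46 in DOX, against 4.50 to 4.51 in Con. In that list 0 genes rose in DOX minus Con and 1 fell, which was the troponin gene Tnnt2 (-1.24, SE 0.09, adjusted p = 5.31e-05), named after its values were seen. Among all genes 8.06% were higher and 7.53% lower in DOX minus Con, and 33% of those above the receptor limit were called. With the shared-value division as a term, the numbers rising in DOX minus Con were 0 for fibroblast and 2 for skeletal muscle markers, and the number falling was 1 for smooth muscle markers. The mean of 9 immune markers ranged from 4.11 to 4.17 in DOX_IFNg and from 4.09 to 4.24 in DOX, against 4.10 to 4.16 in Con. The part of such shifts in the differences of Jak1, Ptpn2 and Ptpn11 was not tested. In these bulk samples fewer cells of a type and less RNA per cell cannot be told apart.

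Of the genes above the receptor limit, those whose log2 levels ran most like Jak1 over the 9 arrays were Ino80 (Pearson r = 0.994), a chromatin remodeller, Dlc1 (r = 0.994), and Csnk1g1 (r = 0.993), a casein kinase. The arrays share the 3 group levels, so such values are common, and the gene in 100th place among 12147 still had r = 0.974.

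**Figure D4:**
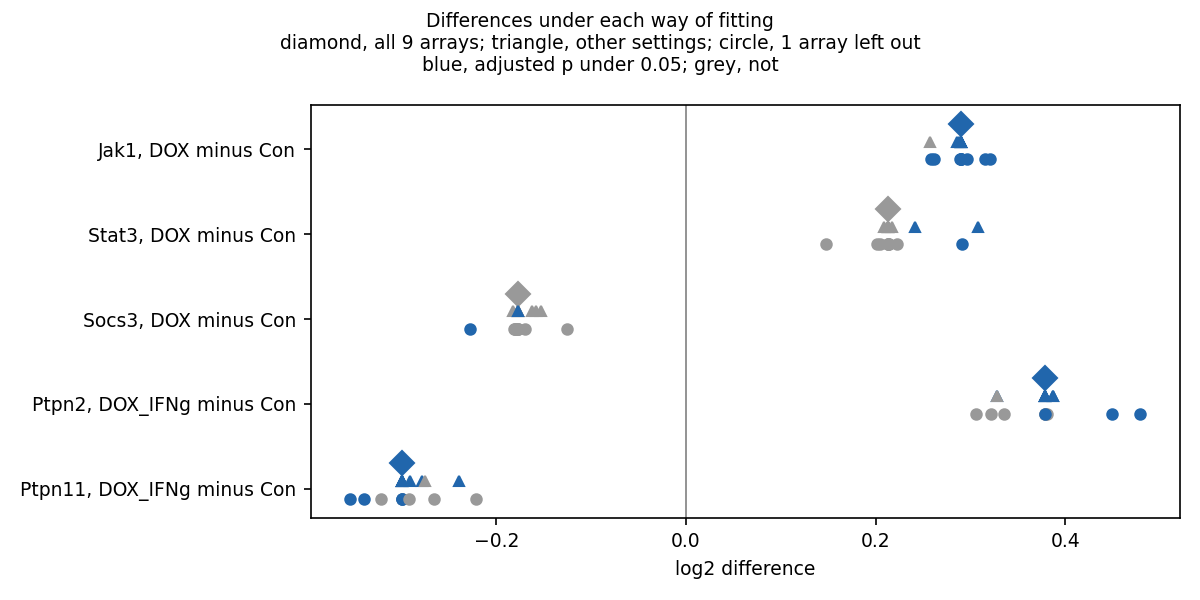
Log2 differences (horizontal axis) of Jak1, Stat3 and Socs3 in DOX minus Con and of Ptpn2 and Ptpn11 in DOX_IFNg minus Con under each planned setting, with the fit to all 9 arrays as a diamond, other settings as triangles and fits without 1 array as circles (some overlie each other). Blue marks an adjusted p under 0.05. No difference crosses 0, Jak1 is grey once at 0.26, and Stat3 and Socs3 are mostly grey.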

How the data were processed

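RNA of 9 arrays was measured, 3 each for DOX_IFNg, DOX and Con, with groups and replicate numbers from the sample titles. The authors deposited log2 values per transcript cluster, made with RMA (background correction, normalization between arrays and probe summary) per the submitters' processing notes. The sources used here give neither its version nor a genome build, and the log2 scale was read from the values, which lay between 2.29 and 19.9. Of 65527 clusters, 30376 had a single symbol. The cluster with the highest mean stood for each of 30050 genes. Columns were used without further scaling (medians 4.08 to 4.17).

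Group means were fitted to all arrays with limma 3.58.1 (lmFit, eBayes) in R 4.3.3, with 6 residual and 2.41 prior degrees of freedom. The two-sided p of all 30050 genes entered each Benjamini-Hochberg adjustment, with calls made at 0.05. Every adjusted p is limma's. The number of arrays limits the precision, and the 10 genes had 95% half-intervals of 0.12 to 0.23. The fit was also run on simulated data as a check of the code only. The simulated noise was independent between arrays and genes were changed in DOX only, unlike these data. The 10 genes and the lists were chosen with earlier results of these data known. The text names all 10 genes, up to 4 called genes of each list reported (1 further list is not reported here), and the 3 genes most like each called member of the 10 in DOX minus Con. Tyk2, Stat2, Irf9, Socs1 and Il6st were named after their values were seen. Same-numbered arrays of different groups had deviations from their group means that correlated between -0.16 and 0.36, over 0.1 in 3 of 9 pairs, so the numbers were not taken to pair the arrays. Alternatives were quantile normalization, centring, a filter on dim genes, fits of 2 groups, a trended robust variance, array weights, a replicate block, the shared-value division, averaged clusters, protein-coding genes (GRCm38.p6 gene table) and leaving out each array.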

Additional observations from a re-analysis of the deposited data

How the results depend on the processing

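Differences of the 10 genes were refitted under 20 alternatives, which gave 568 values beside the main ones, and no called difference changed its sign. The side of the threshold was kept with the same sign by 521 of them, 16 lost a call, 11 gained one, and 20 differences that were called in neither fit changed sign. The number of the 10 genes called in DOX minus Con, 1 in the main fit, was 2 with array weights (Stat3 added), 2 among protein-coding genes only (Socs3 added) and 3 when DOX and DOX_IFNg were set together against Con, an alternative chosen after seeing the data. It was between 1 and 2 when each array was left out, with Stat3 added without Con replicate 3 and Socs3 without DOX replicate 1. With the shared-value division as a term the number stayed at 1, but the gene called was Stat3 instead of Jak1. In DOX_IFNg minus Con, 3 in the main fit, the number was 1 in a fit of only these groups and 1 with the division as a term, and between 1 and 4 without single arrays, with Socs3 added without DOX replicate 3. In each of these fits Jak1 stayed called, and it was the 1 gene called without DOX replicate 1 or DOX_IFNg replicate 1. The number of genes called among all 30050 moved too. In DOX minus Con it was 4687 in the main fit and 6152 with array weights, and 6164 with DOX and DOX_IFNg set together. In DOX_IFNg minus Con it was 5234 in the main fit and 4125 in the fit of only these groups. Over all genes, DOX_IFNg minus DOX gave between 0 and 1 calls without single arrays. That 1 call, Olfr1208 without Con replicate 3 (-0.72, adjusted p = 0.0156), is an olfactory receptor gene chosen for mention after its value was seen. With the replicate block the calls were those of the main fit: Jak1 in DOX minus Con (0.29, adjusted p = 0.0179), and Jak1 (0.32, adjusted p = 0.0109), Ptpn2 (0.38, adjusted p = 0.0160) and Ptpn11 (-0.30, adjusted p = 0.0390) in DOX_IFNg minus Con. Of 9 arrays, 4 correlated best with an array of their own number. The cause of these changes was not tested. Signal limits the receptor chains Ifngr1, Ifnar1 and Ifnar2 and Socs3, which lay under the receptor limit.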
